A study of Mus musculus with 24 samples.

Results

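The genes described here are those of the proteasome and its helpers, measured by RNA-seq while mouse bone marrow cells became osteoclasts, the bone-resorbing giant cells of the myeloid lineage. All genes of the deposited table whose symbol is Psma, Psmb, Psmc, Psmd, Psme or Psmg followed by a number were taken. The rule found 43 of 10721 genes. One of them, Psmc3ip, encodes a protein of meiotic recombination and not of the proteasome, and was kept apart. The other 42 comprised 5 alpha-ring genes, 10 beta-ring genes, 6 genes of the ATPase ring and 14 Psmd genes. They also held 4 activator genes and 3 Psmg chaperones of core assembly. The Psmd genes encode subunits of the 19S particle and, for Psmd5, Psmd9 and Psmd10, chaperones that assemble it. Psma3, Psma6, Psmf1 and Psmg1 were not analysed here.

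The libraries came from 3 STING-deficient mice (KO; mice 481, 528 and 532) and 3 WT mice (480, 529 and 531), all female and 10 to 12 weeks old. STING is the adaptor through which cytosolic DNA sensing switches on type I interferon. How the deficiency was made is not given in the sources used here. Marrow cells freed of red cells were expanded for 72 hours in 40 ng/mL mCSF, the macrophage growth factor. They were then replated with 20 ng/mL mCSF and 10 ng/mL RANKL, the cytokine that turns such precursors into osteoclasts, and sampled at days 2, 3 and 4. The day 0 sample was the part of the expanded cells that received no RANKL. Each mouse gave 1 library per day, 24 in all, from pooled wells. Day 0 thus differs from the later days in RANKL, replating, mCSF dose and time, which cannot be told apart.

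The proteasome is the barrel-shaped protease that degrades proteins tagged with ubiquitin. Its 20S core stacks rings of alpha and beta subunits, and the beta subunits encoded by Psmb5, Psmb6 and Psmb7 carry the proteolytic sites of the constitutive form. Interferons induce Psmb8, Psmb9 and Psmb10, whose products replace them, Psmb8 in the place of Psmb5, Psmb9 in that of Psmb6 and Psmb10 in that of Psmb7. The resulting immunoproteasome supplies many of the peptides shown on MHC class I. The 19S particle, of Psmc ATPases and Psmd subunits, caps the core and unfolds its substrates. The PA28 activator of Psme1 and Psme2, also interferon-inducible, opens the core without ATP.

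Values were FPKM, fragments scaled to transcript length and to the library, so levels of different genes can be set side by side; the fragment counts behind them are not known here. All 42 genes were well expressed. Member values lay between 9.32 and 604 FPKM over the 24 libraries and none was listed at 0. The median member had a mean of 144 FPKM in WT cells at day 0, against 11.8 FPKM for the median of the 10081 genes tested. Differences are given as log2 changes on the log2(FPKM + 1) scale with their SE, and a gene is said to have risen or fallen where the adjusted p of limma's moderated test was under 0.05. Replicates are mice, and 3 mice made up every group.

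The targeted gene was checked first. Sting1, listed under its former symbol Tmem173, stood at 5.08, 4.57 and 4.89 FPKM in KO cells and 28.7, 25.4 and 21.3 FPKM in WT cells at day 0 (log2 change -2.15, limma adjusted p = 8.26e-06). At day 4 it stood at 2.65, 2.86 and 2.85 FPKM in KO cells and 3.38, 4.93 and 5.01 FPKM in WT cells, a difference that was not called (adjusted p = 0.224). All 10 osteoclast markers rose from day 0 in both genotypes by day 2. Neutrophil markers also marked day 0: their 8 genes summed to 64.5 to 218.1 FPKM over all later libraries, against 7378 to 12790 FPKM in KO cells and 5811 to 15890 FPKM in WT cells at day 0. The B cell marker genes summed to under 1 FPKM in every later library, against 49.6 to 125.9 FPKM in KO cells and 26.1 to 97.0 FPKM in WT cells at day 0. Of 8 macrophage or monocyte markers 6 fell at day 2 in each genotype, and of 3 tested dendritic cell markers 1 rose and 1 fell. Among all genes tested, 37.1% rose and 36.5% fell at day 2 in KO cells, and 38.5% and 37.5% in WT cells. From day 2 to day 4, 6 of the 8 macrophage or monocyte markers rose and 0 fell in KO cells (33.4% and 29.8% of all genes). In WT cells 7 rose and 1 fell over that span (34.2% and 32% of all genes). No stromal, T or NK cell marker was tested. The part of these cells in the changes from day 0 was not tested, and in such bulk samples fewer cells of a type and less RNA per cell cannot be told apart.

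Psmb9 and Psmb8 lie near each other in the MHC region of chromosome 17, at chr17:34182030-34187330 and chr17:34198195-34201454 in RefSeq's GRCm38.p6. The peptide transporter genes Tap1 (chr17:34187556-34197225) and Tap2 (chr17:34204479-34216321) lie between and beyond them. Psmb9 and Tap1 start back to back. The stretch between their starts and the 120 bases before the starts of Psmb8 and Psmb5 are printed from RefSeq because the courses of these genes are compared. Each is given on the coding strand of the first gene named. Capitals mark a match to one of 4 short motifs sought on both strands: the interferon-response core (GAAA, any 2 bases, GAAA), the STAT site TTCNNNGAA, the antioxidant-response-like TGACNNNGC and the CCAAT box.
Psmb9 to Tap1, chr17:34187331-34187555, minus strand: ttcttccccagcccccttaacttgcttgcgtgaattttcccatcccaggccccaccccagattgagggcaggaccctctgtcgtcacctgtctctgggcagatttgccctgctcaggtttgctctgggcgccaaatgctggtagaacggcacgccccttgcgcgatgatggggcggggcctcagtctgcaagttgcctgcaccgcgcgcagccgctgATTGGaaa
Psmb8, chr17:34198075-34198194, plus strand: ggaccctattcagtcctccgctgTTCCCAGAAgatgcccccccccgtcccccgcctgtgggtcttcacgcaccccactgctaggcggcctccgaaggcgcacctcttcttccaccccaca
Psmb5, chr14:54617996-54618115, minus strand: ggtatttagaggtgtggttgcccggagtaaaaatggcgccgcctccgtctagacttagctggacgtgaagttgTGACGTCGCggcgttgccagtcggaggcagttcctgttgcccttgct
The window of Psmb8 held 1 STAT site match, 97 bases before the start, and the stretch between Psmb9 and Tap1 held 1 CCAAT box. Psmb5 held 1 match to the antioxidant-like motif, starting 47 bases before the start. Over windows from 250 bases before to 50 after a start, 35 of the 42 genes were in the table. The interferon core was found in 5 of these 35 (14.3%), namely Psmd4, Psmd9, Psmb3, Psmg4 and Psme1, against 3.44% of all 32851 windows. No match to it was found for Psmb8, Psmb9, Psmb10 or Psme2. Member shares count genes while the shares of all windows count windows, so the 2 kinds of share are not fully alike. The STAT site was found in 2 of 35 (5.71%) against 8.3% of all windows, the antioxidant-like motif in 6 (17.1%) against 12.4%, and the CCAAT box in 11 (31.4%) against 37.4%. Such matches describe letters and do not show binding.

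Psmb8, Psmb9 and Psmb10 all fell from day 0 to day 2 in both genotypes and stayed below day 0 at days 3 and 4. At day 0 Psmb8 stood at 172, 191 and 145 FPKM in KO cells and 226, 180.1 and 252 FPKM in WT cells. At day 2 Psmb8 stood at 60.8, 79.1 and 70.2 FPKM in KO cells and 71.1, 68.4 and 90.4 FPKM in WT cells. Every day 2 library thus lay below every day 0 library, in both genotypes. Over day 3, Psmb8 ranged over 57.2 to 70.2 FPKM in KO cells and 61.2 to 66.3 FPKM in WT cells, and at day 4 it stood at 52.4, 64.3 and 60.4 FPKM in KO cells and 55.2, 50.1 and 65.1 FPKM in WT cells. The log2 change of Psmb8 at day 4 was -1.50 ± 0.18 in KO cells (limma adjusted p = 2.61e-07) and -1.92 ± 0.18 in WT cells (adjusted p = 7.09e-09), the largest fall of any of the 42 genes in WT cells.

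Psmb9, whose product takes the place of the caspase-like subunit, had the lowest mean FPKM of the catalytic genes in every group. At day 0 Psmb9 stood at 60.6, 74.7 and 58.2 FPKM in KO cells and 84.8, 78.1 and 101 FPKM in WT cells, and at day 2 at 23.3, 30.8 and 28.9 FPKM in KO cells and 24.4, 23.4 and 34.9 FPKM in WT cells. Its day 2 log2 change was -1.19 ± 0.22 in KO cells (limma adjusted p = 7.27e-05) and -1.65 ± 0.22 in WT cells (adjusted p = 1.24e-06). Day 2 was its lowest day in both genotypes. Over day 3, Psmb9 ranged over 28.3 to 39.9 FPKM in KO cells and 28.0 to 32.9 FPKM in WT cells, and at day 4 it stood at 32.1, 40.0 and 32.6 FPKM in KO cells and 34.9, 33.0 and 41.1 FPKM in WT cells.

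Psmb10, the partner of Psmb7, fell likewise. At day 0 Psmb10 stood at 99.1, 121 and 82.4 FPKM in KO cells and 151, 105 and 149.9 FPKM in WT cells, and at day 2 at 34.4, 40.5 and 37.2 FPKM in KO cells and 36.7, 34.8 and 43.1 FPKM in WT cells. The day 2 log2 change was -1.39 ± 0.16 in KO cells (limma adjusted p = 1.71e-07) and -1.78 ± 0.16 in WT cells (adjusted p = 4.35e-09), the largest fall among the 42 genes in WT cells at that day. Psmb10 ranged over 36.2 to 44.9 FPKM in KO cells and 36.6 to 38.9 FPKM in WT cells at day 3 and stood at 41.7, 47.1 and 41.5 FPKM in KO cells and 40.6, 39.0 and 47.4 FPKM in WT cells at day 4. No library of the RANKL days reached the lowest day 0 library.

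The constitutive partners did not share 1 course. Psmb6, the caspase-like subunit, fell at every RANKL day. At day 0 Psmb6 stood at 357, 428 and 295 FPKM in KO cells and 415, 399.6 and 474 FPKM in WT cells, at day 2 at 224, 259 and 211 FPKM in KO cells and 219.6, 198 and 281 FPKM in WT cells, and at day 4 at 183, 188 and 172 FPKM in KO cells and 172, 160.0 and 198 FPKM in WT cells; at day 3 it ranged over 188 to 251 FPKM in KO cells and 183 to 216 FPKM in WT cells. The groups of days 2 and 4 lay below those of day 0 without overlap. Its log2 change at day 2 was -0.62 ± 0.19 in KO cells (limma adjusted p = 0.00649) and -0.89 ± 0.19 in WT cells (adjusted p = 0.000317). Without mouse 481 the KO change was -0.60 and not called (adjusted p = 0.0535). At day 4 the log2 change was -0.97 ± 0.19 in KO cells and -1.28 ± 0.19 in WT cells (adjusted p = 0.000107 and 3.85e-06).

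Psmb7, the trypsin-like subunit, rose at day 2 and then came down. At day 0 Psmb7 stood at 230.5, 243 and 195 FPKM in KO cells and 204, 254 and 274 FPKM in WT cells. At day 2 Psmb7 stood at 348, 382 and 345 FPKM in KO cells and 336, 333 and 417 FPKM in WT cells, every library above those of day 0. The log2 change at day 2 was 0.69 ± 0.15 in KO cells (limma adjusted p = 0.000469) and 0.57 ± 0.15 in WT cells (adjusted p = 0.00229). At day 3 Psmb7 ranged over 276 to 325 FPKM in KO cells and 266 to 309.7 FPKM in WT cells, and at day 4 it stood at 217, 206 and 188 FPKM in KO cells and 209, 174 and 197 FPKM in WT cells, overlapping day 0. The day 4 log2 change was -0.13 in KO cells (adjusted p = 0.442) and -0.33 in WT cells (adjusted p = 0.0513). That WT value passed the threshold with the mouse as a block (adjusted p = 0.0295), with equal weights (adjusted p = 0.0147), with a pseudocount of 0.1 (adjusted p = 0.0499), without mouse 480 (-0.51, adjusted p = 0.00841) and without mouse 532 (adjusted p = 0.0456).

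Psmb5, the chymotrypsin-like subunit, was lowest at day 4. At day 0 Psmb5 stood at 238, 229.9 and 166 FPKM in KO cells and 220.4, 219 and 266 FPKM in WT cells, and at day 2 at 204, 221 and 188 FPKM in KO cells and 203, 184 and 233 FPKM in WT cells. These groups overlapped, and the day 2 log2 change was -0.03 in KO cells (limma adjusted p = 0.859) and -0.19 in WT cells (adjusted p = 0.295). At day 3 Psmb5 ranged over 165 to 204 FPKM in KO cells and 171 to 191 FPKM in WT cells, a fall that was called in WT cells (-0.39, adjusted p = 0.0253) though not without mouse 531 (-0.27, adjusted p = 0.21). At day 4 Psmb5 stood at 146, 134 and 128 FPKM in KO cells and 143, 121 and 146 FPKM in WT cells, below every day 0 library. The day 4 log2 change was -0.61 ± 0.16 in KO cells (adjusted p = 0.00143) and -0.78 ± 0.16 in WT cells (adjusted p = 0.000142). These falls were not called with the trend on transcript length removed (-0.20 in KO cells and -0.19 in WT cells), and the WT day 3 value turned to 0.18.

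**Figure D1:**
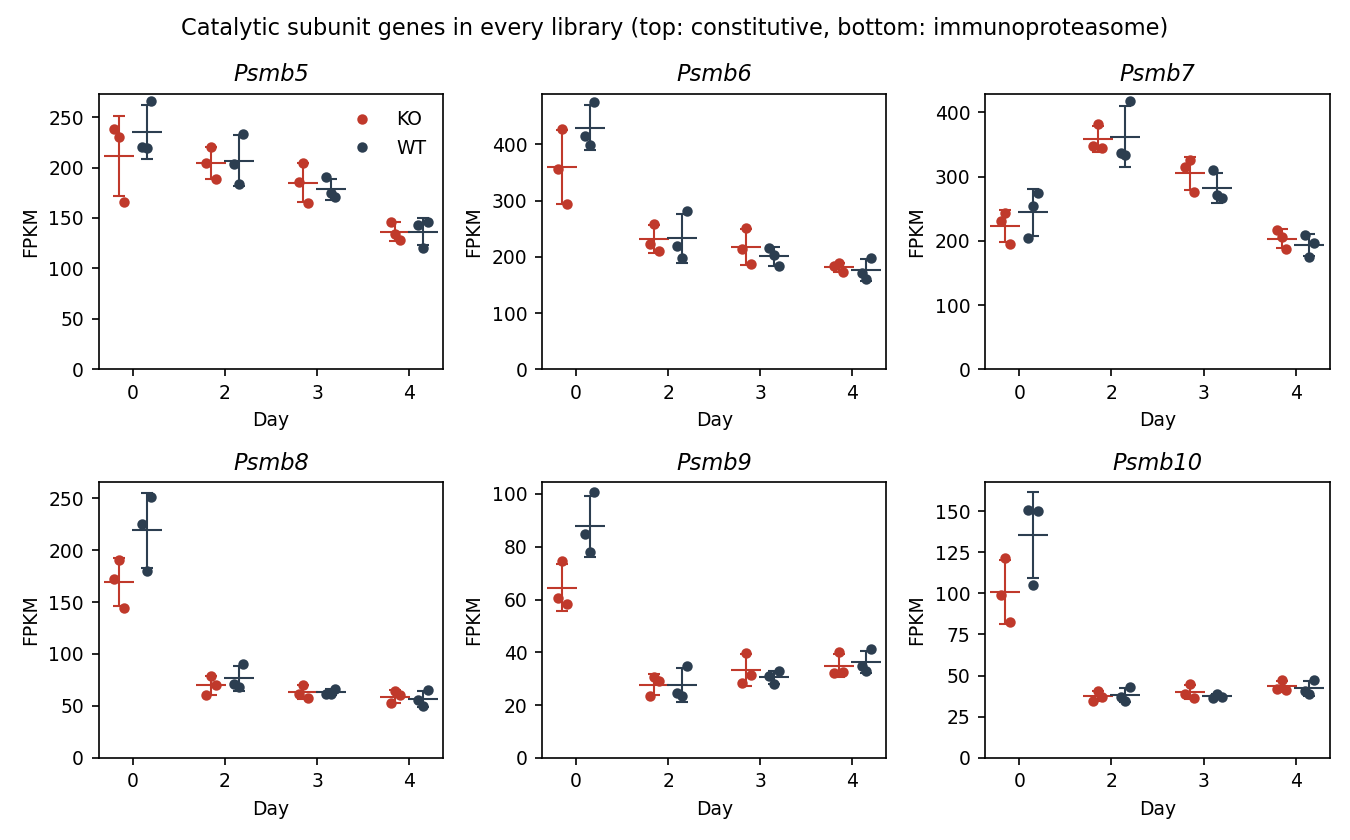
FPKM of the catalytic subunit genes (y axes, linear from 0) against day (x axes), with KO libraries in red on the left and WT libraries in dark blue on the right of each day; each point is 1 mouse and the bars are the mean and SD of 3 mice. Psmb8, Psmb9 and Psmb10 stand highest at day 0, Psmb7 stands highest at day 2, and the KO and WT points overlap from day 2 on.

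The level of each immunoproteasome gene relative to its partner shifted over the course. As a percentage of the partner's FPKM in the same library, Psmb8 amounted to 80.8, 34.3, 34.1 and 43.6% of Psmb5 in KO cells at days 0, 2, 3 and 4 (SD 7.74, 3.99, 0.766 and 6.76, n = 3 each). In WT cells Psmb8 amounted to 93.0, 37.0, 35.4 and 41.6% of Psmb5 over the same days (SD 10.2, 1.90, 3.36 and 3.10). At day 0 the Psmb8 level in FPKM was thus close to that of Psmb5, and in WT mouse 480 it was above it, at 102.4%. Psmb8 has a transcript of 1628 bases and Psmb5 one of 622, and these percentages were not computed with the trend on transcript length removed. Psmb9 amounted to 18.1, 12.0, 15.3 and 19.2% of Psmb6 in KO cells and 20.4, 11.8, 15.4 and 20.5% in WT cells over these days. Psmb10 amounted to 45.0, 10.4, 13.1 and 21.4% of Psmb7 in KO cells and 56.6, 10.6, 13.4 and 22.0% in WT cells. The WT day 0 mean of Psmb10 was the least precise of these, since mice 480, 529 and 531 gave 73.7, 41.4 and 54.7%.

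The change of each ratio was tested within mice, over the 6 mice of both genotypes, with a two-sided exact sign-flip permutation test whose smallest possible p is 0.0312. This test was added after the values were seen, over 9 comparisons. From day 0 to day 2 the log2 ratio fell in 6 of 6 mice for each pair, by a mean of 1.27 ± 0.14 for Psmb8 to Psmb5, 0.66 ± 0.13 for Psmb9 to Psmb6 and 2.22 ± 0.30 for Psmb10 to Psmb7 (SD, n = 6; exact p = 0.0312 and adjusted p = 0.0352 for each). From day 2 to day 4 the ratio rose in 6 of 6 mice for each pair. The means of that rise were 0.26 ± 0.11, 0.73 ± 0.14 and 1.03 ± 0.13 in the same order of pairs (exact adjusted p = 0.0352 for each). At day 4 the ratio was still below day 0 in 6 of 6 mice for Psmb8 to Psmb5 (-1.02 ± 0.21) and Psmb10 to Psmb7 (-1.18 ± 0.37), with an exact adjusted p of 0.0352 for each. For Psmb9 to Psmb6 it was higher in 4 of 6 mice and lower in 2, a mean difference of 0.07 ± 0.12 (exact adjusted p = 0.25). The partners differ in transcript length: Psmb8 has 1628 bases and Psmb5 622, Psmb9 1352 and Psmb6 798, Psmb10 1311 and Psmb7 1160. The ratios were not tested with the trend on transcript length removed, a trend described with transcript length.

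**Figure D2:**
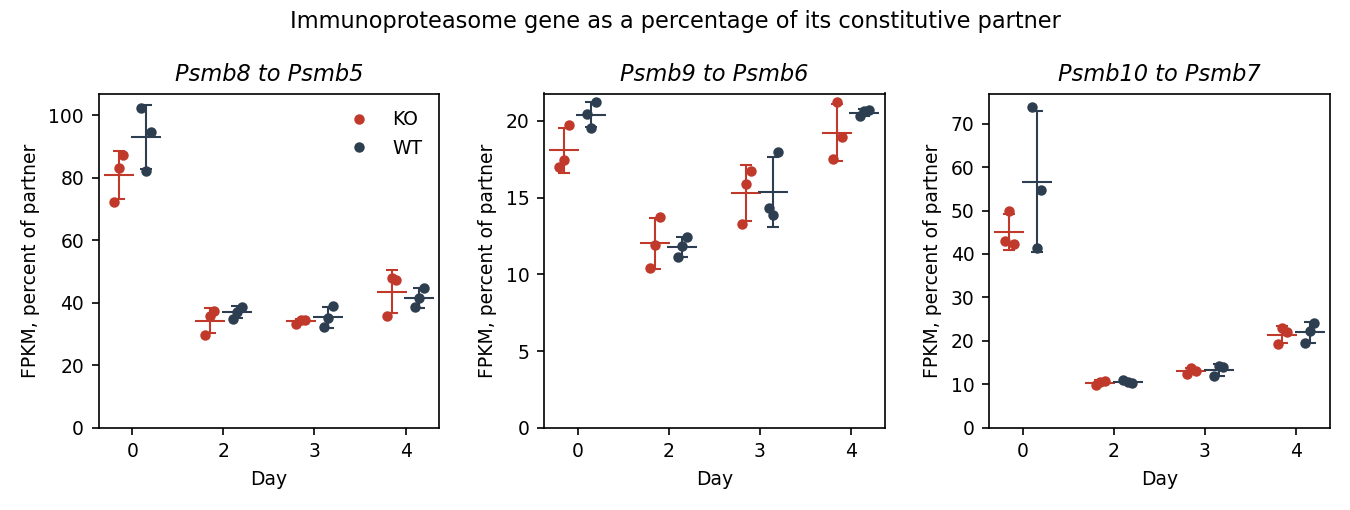
FPKM of each immunoproteasome gene as a percentage of its constitutive partner in the same library (y axes, linear from 0) against day (x axes), KO in red on the left and WT in dark blue on the right; points are mice and bars are the mean and SD of 3 mice. Each percentage drops between days 0 and 2 and is higher again at day 4, where Psmb9 is back at 19.2% of Psmb6 in KO cells and 20.5% in WT cells.

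The genes of the 3 pairs moved differently between days 2 and 4. Over these days, a comparison added after the values were seen, Psmb5 fell by 0.58 in KO cells and by 0.59 in WT cells on the log2 scale (limma adjusted p = 6.06e-05 and 4.32e-05). Psmb7 fell by 0.81 in KO cells and 0.90 in WT cells (adjusted p = 5.6e-07 and 1.27e-07). Psmb6 fell less, by 0.34 in KO cells and 0.39 in WT cells (adjusted p = 0.0219 and 0.0105), a KO value that was not called without mouse 481 (-0.37, adjusted p = 0.0765) or without mouse 528 (-0.29, adjusted p = 0.107). Psmb8 also fell in WT cells (log2 change -0.42, adjusted p = 0.00412). Its KO value of -0.24 was not called (adjusted p = 0.0874, or 0.00344 with the mouse as a block). Psmb9 went the other way. It rose in WT cells (0.40, adjusted p = 0.0196), a call that was lost without mouse 480 (0.35, adjusted p = 0.123) or without mouse 529 (0.36, adjusted p = 0.0767). In KO cells its value of 0.33 had an adjusted p of 0.056, or 0.000273 with the mouse as a block. Psmb10 gave 0.21 in KO cells (adjusted p = 0.0865, or 0.0112 with the block) and 0.14 in WT cells (adjusted p = 0.232).

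The activators split into those that fell and those that did not. Psme1 and Psme2, the PA28 alpha and beta genes, fell with the immunoproteasome genes. At day 0 Psme1 stood at 218, 249.8 and 201 FPKM in KO cells and 314, 236 and 301 FPKM in WT cells, and at day 2 at 71.5, 89.0 and 76.7 FPKM in KO cells and 77.6, 79.4 and 97.0 FPKM in WT cells. The log2 change of Psme1 at day 2 was -1.48 ± 0.18 in KO cells (limma adjusted p = 2.64e-07) and -1.73 ± 0.18 in WT cells (adjusted p = 2.74e-08). At day 0 Psme2 stood at 198, 259 and 188 FPKM in KO cells and 283, 243 and 335 FPKM in WT cells, and at day 2 at 124, 152 and 129 FPKM in KO cells and 131, 128 and 156 FPKM in WT cells. Psme2 fell less than Psme1 in value (-0.66 in KO cells and -1.04 in WT cells; adjusted p = 0.0021 and 2.03e-05). Neither had overlapping groups. At day 4 Psme1 stood at 82.5, 89.9 and 87.1 FPKM in KO cells and 78.2, 83.8 and 104 FPKM in WT cells, and Psme2 at 129.5, 139 and 124 FPKM in KO cells and 117, 126 and 154 FPKM in WT cells. These 2 genes lie close together on chromosome 14, at chr14:55578494-55581527 and chr14:55587440-55591101.

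Psme3, which encodes PA28 gamma, the nuclear activator, had its highest level at day 2. At day 0 Psme3 stood at 54.4, 53.2 and 70.6 FPKM in KO cells and 43.3, 58.1 and 53.2 FPKM in WT cells, and at day 2 at 85.6, 84.9 and 98.5 FPKM in KO cells and 85.8, 106 and 87.8 FPKM in WT cells. Every day 2 library lay above those of day 0 of its genotype, with a log2 change of 0.59 ± 0.13 in KO cells (limma adjusted p = 0.000341) and 0.84 ± 0.13 in WT cells (adjusted p = 6.18e-06). At day 4 Psme3 was back at 53.1 to 58.7 FPKM in KO cells and 51.7 to 57.5 FPKM in WT cells. Psme4, the gene of the PA200 activator, was higher at each later day. At days 0, 2, 3 and 4 its mean was 14.01, 18.9, 21.8 and 23.6 FPKM in KO cells and 14.3, 18.3, 22.7 and 23.8 FPKM in WT cells. At day 4 Psme4 stood at 23.3, 23.5 and 24.1 FPKM in KO cells and 24.1, 24.8 and 22.4 FPKM in WT cells, against 13.1, 12.6 and 16.3 FPKM in KO cells and 14.7, 14.6 and 13.7 FPKM in WT cells at day 0. Its log2 change at day 4 was 0.72 ± 0.11 in KO cells and 0.69 ± 0.11 in WT cells (adjusted p = 6.63e-06 and 1.09e-05). Psme4 has the longest transcript of the 42 genes, and its values with the length trend removed are given with transcript length.

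Most of the other subunit genes drifted down over the course. By day 4 all 5 alpha-ring genes, all 6 ATPase genes and all 4 structural beta-ring genes (Psmb1 to Psmb4) had fallen in each genotype. So had all 3 Psmg chaperones of core assembly. Of all genes tested, 40.8% fell and 38.6% rose at day 4 in KO cells, and 42.7% fell and 39.2% rose in WT cells. With the trend on transcript length removed, Psmb2 (-0.12 in KO cells and -0.07 in WT cells), Psmb3 (-0.28 and -0.31) and Psmg3 (-0.34 and -0.44) were not called in either genotype. Nor were Psmc6 in KO cells (-0.15) and Psmg2 in WT cells (-0.25). Of the 14 Psmd genes, 9 fell and 1 rose in KO cells, and 10 fell and 1 rose in WT cells. The riser was Psmd10, a chaperone of 19S assembly, in both. Summed over the 42 genes, the level at day 4 was 3673 to 4008 FPKM in KO cells and 3454 to 4040 FPKM in WT cells. At day 0 the sum was 5645 to 7039 FPKM in KO cells and 6674 to 8067 FPKM in WT cells. The sum over all genes of the table was also lower at day 4. It was 523729 to 528447 FPKM in KO cells and 487890 to 537906 FPKM in WT cells. At day 0 that whole sum was 573661 to 652938 FPKM in KO cells and 619851 to 734974 FPKM in WT cells. The highest mean fell on day 0 for 28 of 42 genes and on day 2 for 12 of 42, in each genotype. The like count over all genes was not made, so these numbers describe the members alone.

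In counts, 7 of 42 genes rose and 18 fell at day 2 in KO cells, where 37.1% of all genes tested rose and 36.5% fell. In WT cells 7 rose and 19 fell at day 2, against 38.5% and 37.5% of all genes. At day 3, 5 rose and 22 fell in KO cells (38.9% and 39.5% of all genes), and 5 rose and 28 fell in WT cells (40.4% and 41.6%). At day 4, 2 rose and 34 fell in KO cells (38.6% and 40.8%), and 2 rose and 35 fell in WT cells (39.2% and 42.7%). As shares, 42.9% of the 42 genes in KO cells and 45.2% in WT cells fell at day 2, and 81% and 83.3% at day 4. The median log2 change of the 42 genes at days 2, 3 and 4 was -0.15, -0.38 and -0.68 in KO cells and -0.26, -0.61 and -0.86 in WT cells, while the median of all genes lay between -0.07 and 0.00. With the trend on transcript length removed, as described with transcript length, the day 2 medians were -0.03 in KO cells and -0.01 in WT cells. Of the calls, 25 genes at day 2, 26 at day 3 and 36 at day 4 were shared by both genotypes, each with 1 direction in both. This overlap was not counted over all genes, so it does not set the members apart.

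**Figure D3:**
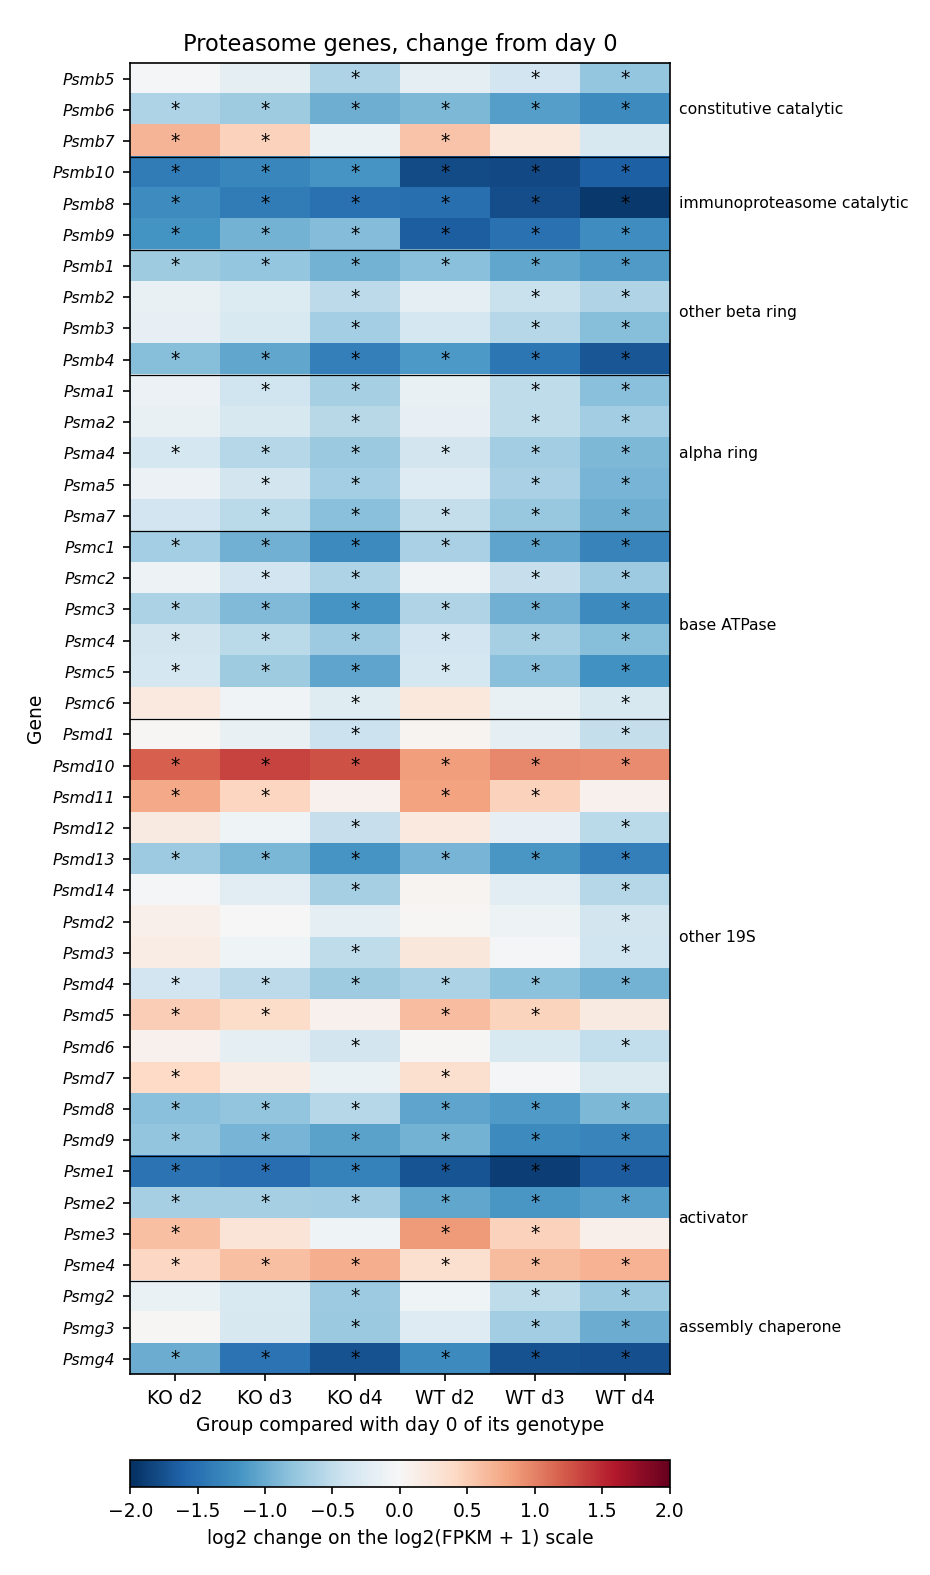
Log2 change from day 0 on the log2(FPKM + 1) scale (colour, blue lower and red higher) for the 42 genes in rows, grouped by role, in KO cells at days 2, 3 and 4 (left columns) and WT cells at the same days (right columns); a star marks an adjusted p under 0.05. Psmb8, Psmb9, Psmb10, Psme1 and Psme2 are blue at every day, most other rows turn blue by day 4, and Psmd10 and Psme4 are red throughout.

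Between successive RANKL days the decline went on. From day 2 to day 3, 1 gene rose and 17 fell in KO cells (23.6% and 20.3% of all genes), and 1 rose and 26 fell in WT cells (24.9% and 24.2%); the riser was Psme4 in both. Its KO call (0.19) was lost with equal weights (adjusted p = 0.106) and without mouse 480, 481, 528 or 532 (0.16 to 0.22, adjusted p = 0.0561 to 0.182). Without mouse 528 the KO calls numbered 8, without mouse 532 they numbered 4, and with equal weights they numbered 9; without mouse 531 the WT calls numbered 13. From day 3 to day 4, 1 rose and 24 fell in KO cells (18.2% and 17.6%), and 1 rose and 19 fell in WT cells (19% and 19.8%); the riser was Psmd8, a 19S lid subunit, in both. The Psmd8 call was lost in KO cells without mouse 481, 528, 529 or 532 (0.18 to 0.25, adjusted p = 0.0544 to 0.238), in WT cells without mouse 480 or 531 (0.19 and 0.16, adjusted p = 0.119 and 0.164), and with equal weights in both. Without mouse 481 the KO calls numbered 15, without mouse 528 they numbered 10 and with equal weights 12, and without mouse 529 the WT calls numbered 12. Over the whole span from day 2 to day 4, 2 genes rose and 34 fell in KO cells (33.4% and 29.8% of all genes), and 2 rose and 35 fell in WT cells (34.2% and 32%).

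Among the structural core genes, the member with the largest fall was Psmb4, a beta-ring subunit. It stood at 165, 149.8 and 129 FPKM in KO cells and 154, 126 and 151 FPKM in WT cells at day 4. At day 0 Psmb4 stood at 401, 484 and 285 FPKM in KO cells and 408, 428 and 604 FPKM in WT cells, where WT mouse 531 had the highest value of any member in any library. The log2 change was -1.37 ± 0.23 in KO cells (limma adjusted p = 2e-05) and -1.71 ± 0.23 in WT cells (adjusted p = 1.09e-06), without overlap. Psmb2 fell least of that class: it stood at 195, 185 and 192 FPKM in KO cells and 191, 162 and 207 FPKM in WT cells at day 4 and 277, 281 and 265 FPKM in KO cells and 259.9, 276 and 317 FPKM in WT cells at day 0, log2 changes of -0.52 in KO cells and -0.61 in WT cells. The alpha ring had the narrowest spread of these classes, with WT changes at day 4 between -0.98 (Psma7) and -0.70 (Psma2). Psma7 stood at 152, 142 and 117 FPKM in KO cells and 135, 123 and 143 FPKM in WT cells at day 4, against 264, 273 and 197 FPKM in KO cells and 244, 247 and 307 FPKM in WT cells at day 0. Psma2 stood at 185, 173 and 161 FPKM in KO cells and 169, 146 and 182 FPKM in WT cells at day 4, against 238, 276 and 252 FPKM in KO cells and 228, 282 and 302 FPKM in WT cells at day 0. No day 4 library of these 4 genes reached day 0 of its genotype.

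The genes of the 19S particle spread more widely. In the ATPase ring, which threads substrates into the core, Psmc1 fell most, standing at 83.9, 76.9 and 77.0 FPKM in KO cells and 77.3, 70.5 and 84.0 FPKM in WT cells at day 4. At day 0 Psmc1 had stood at 199, 197 and 180.1 FPKM in KO cells and 188, 186 and 213 FPKM in WT cells, so the groups did not overlap (log2 change -1.27 ± 0.12 in KO and -1.33 ± 0.12 in WT cells; limma adjusted p = 5.47e-09 and 2.69e-09). Psmc6 fell least, standing at 76.0, 74.5 and 75.2 FPKM in KO cells and 73.9, 67.0 and 77.5 FPKM in WT cells at day 4, against 77.1, 104 and 88.5 FPKM in KO cells and 75.5, 96.4 and 103 FPKM in WT cells at day 0; its WT groups overlapped. The Psmc6 call was lost in KO cells without mouse 528 (-0.13, adjusted p = 0.401) or 532 (-0.25, adjusted p = 0.117) and in WT cells without mouse 529 (-0.22, adjusted p = 0.114) or 531 (-0.28, adjusted p = 0.0515). Outside the ATPases, Psmd13, a lid subunit, fell most: it stood at 67.8, 66.9 and 61.4 FPKM in KO cells and 64.7, 60.0 and 67.1 FPKM in WT cells at day 4 and 156, 172 and 125 FPKM in KO cells and 158, 149 and 196 FPKM in WT cells at day 0 (log2 change -1.18 in KO and -1.37 in WT cells).

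Psmd10 encodes gankyrin, a chaperone of 19S assembly that leaves before the particle is finished, and it rose. At day 4 Psmd10 stood at 73.4, 78.4 and 67.7 FPKM in KO cells and 72.3, 70.9 and 77.2 FPKM in WT cells, against 27.4, 38.2 and 24.6 FPKM in KO cells and 37.4, 32.5 and 43.9 FPKM in WT cells at day 0. All later libraries lay above those of day 0, and the level at day 2 was already 63.2 to 73.2 FPKM in KO cells and 58.5 to 80.6 FPKM in WT cells. Its log2 change at day 4 was 1.28 ± 0.16 in KO cells (limma adjusted p = 5.9e-07) and 0.94 ± 0.16 in WT cells (adjusted p = 2.61e-05). Psmd5, also a chaperone of the 19S base, Psmd11, a lid subunit, and Psmd7, the partner of the deubiquitinase Psmd14, rose at day 2 in both genotypes and were not called at day 4. Their day 2 log2 changes were 0.50, 0.75 and 0.41 in KO cells and 0.62, 0.80 and 0.32 in WT cells. With the length trend removed Psmd5 had 0.25 in KO cells, not called (adjusted p = 0.0815), and 0.32 in WT cells (adjusted p = 0.0293). The Psmd7 call was lost in KO cells without mouse 481 or 532 (0.38 and 0.34, adjusted p = 0.0733 and 0.0919) and in WT cells without mouse 480, 481, 528, 529 or 532 (0.27 to 0.36, adjusted p = 0.0523 to 0.109). The third 19S base chaperone in the data, Psmd9, instead fell, by 1.07 in KO cells and 1.33 in WT cells at day 4 (adjusted p = 2.23e-06 and 1.17e-07).

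Of the chaperones that build the 20S core, Psmg4 fell most. At day 4 Psmg4 stood at 26.7, 23.2 and 19.7 FPKM in KO cells and 23.6, 24.8 and 30.7 FPKM in WT cells, and at day 0 at 83.0, 95.5 and 62.6 FPKM in KO cells and 81.0, 80.4 and 114 FPKM in WT cells. The log2 change was -1.74 ± 0.20 in KO cells (limma adjusted p = 1.21e-07) and -1.75 ± 0.20 in WT cells (adjusted p = 1.05e-07). Psmg2 fell least, standing at 20.5, 21.3 and 19.1 FPKM in KO cells and 21.0, 17.6 and 23.0 FPKM in WT cells at day 4 and 31.5, 41.7 and 30.7 FPKM in KO cells and 25.2, 35.3 and 47.1 FPKM in WT cells at day 0 (-0.73 in KO and -0.74 in WT cells). Psmc3ip, the gene outside the proteasome, fell from day 0 to day 4 as well (-1.09 in KO cells and -1.11 in WT cells).

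Transcript length moved with the change from day 0 across the whole table. In WT cells at day 4, genes with transcripts of up to 1000 bases had a median log2 change of -0.62, genes over 1000 and up to 2000 bases -0.46, genes over 2000 and up to 4000 bases 0.06 and longer genes 0.54. The 42 proteasome genes are short: their median transcript length was 1384.5 bases (474 to 6491), against 2410 bases over all genes with a length. Members had medians of -0.99, -0.90, -0.40 and 0.44 in the same 4 length classes. With the trend on length removed, an alternative chosen after seeing the data, 10 of 42 genes rose and 13 fell at day 2 in KO cells, where 36.5% of all genes rose and 35.2% fell. In WT cells 14 rose and 16 fell at day 2, against 37.1% and 35.6% of all genes, so the members were near the general share. The median of the 42 genes at days 2, 3 and 4 was then -0.03, -0.21 and -0.38 in KO cells and -0.01, -0.24 and -0.45 in WT cells. At day 3, 4 rose and 19 fell in KO cells (37.2% and 37.3% of all genes), and 5 rose and 21 fell in WT cells (37.3% and 38.6%). At day 4, 3 rose and 28 fell in KO cells (36.8% and 38.3%), and 2 rose and 27 fell in WT cells (36.6% and 39.1%). Between days 2 and 4 the medians of the length classes lay between -0.02 and 0.07 in KO cells and between -0.06 and 0.12 in WT cells. With the trend removed, 34 genes fell and 5 rose over that span in KO cells (30.9% and 35.5% of all genes), and 35 fell and 4 rose in WT cells (33.1% and 36.4%), against 2 that rose in each genotype without its removal. The cause of this trend was not tested.

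At day 4 the immunoproteasome and PA28 falls were still called with the trend removed. Psmb8 then had -1.25 in KO cells and -1.62 in WT cells, Psmb9 -0.55 and -0.85, and Psmb10 -0.86 and -1.22 (limma adjusted p at most 0.0151). Psme2 had -0.30 in KO cells and -0.56 in WT cells (adjusted p = 0.0215 and 0.000173), and Psme1 was called with adjusted p of 7.6e-07 and 9.44e-08. Psmb5, with a transcript length of 622 bases here, then had -0.20 in KO cells and -0.19 in WT cells at day 4, neither called (adjusted p = 0.0753 and 0.0873). At day 2 its direction turned, to a rise of 0.33 in KO cells and 0.30 in WT cells (adjusted p = 0.00517 and 0.00952), and in WT cells at day 3 to 0.18 (adjusted p = 0.102). Psmb6 still fell at day 4 (-0.57 in KO cells, -0.73 in WT cells). Its KO fall at day 2 was then not called (-0.27, adjusted p = 0.0576). Psmb2 and Psmg2 in WT cells at day 4 then gave -0.07 and -0.25, neither called. Psme4, at 6491 bases, turned at day 2, to -0.05 in KO cells (adjusted p = 0.483) and -0.20 in WT cells, a called fall (adjusted p = 0.00646), and had at day 4 0.21 in KO cells, still a rise, and 0.06 in WT cells, not called. Psmd10 rose by 1.59 in KO cells and 1.33 in WT cells.

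**Figure D4:**
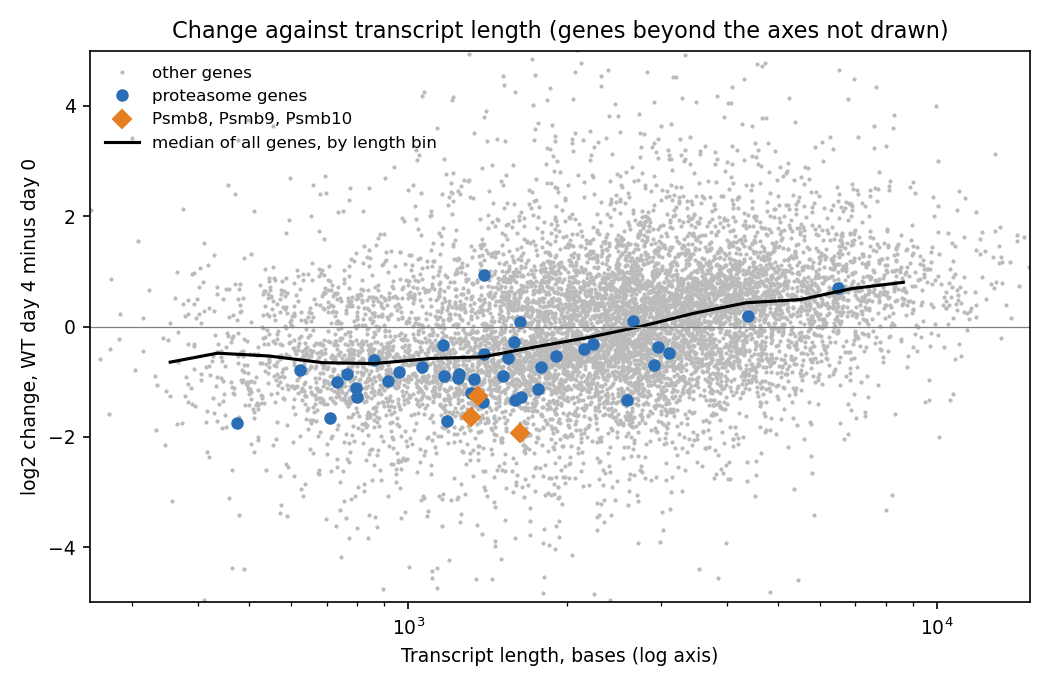
Log2 change of WT cells from day 0 to day 4 (y axis) against transcript length in bases (x axis, log scale) for all genes with a length (grey), the proteasome genes (blue) and Psmb8, Psmb9 and Psmb10 (orange diamonds); the black line is the median of all genes in bins of length. The line runs below 0 for short transcripts and above 0 for long ones, and the orange points, at -1.92, -1.25 and -1.64, lie below it.

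Between the genotypes, no proteasome gene was called at any day. By limma's test 0 of 42 genes differed at day 0, where 0.0992% of all genes did, and 0 of 42 at day 2 (0.0298% of all genes), day 3 (0.0198%) and day 4 (0.0298%). At an unadjusted p under 0.05, 1 of 42 passed at day 0, which was Psmb10, beside 198 of all 10081 genes, a like share. At days 2, 3 and 4, 0 of 42 passed, beside 102, 358 and 171 of all genes. The genotype by day interaction called 0 of 42 genes (0.0298% of all genes), the smallest unadjusted p among them being 0.18. At day 0 the median difference of the 42 genes, KO minus WT, was -0.10, and 37 of 42 were negative. At day 3 the median was 0.07, and 39 of 42 were positive. Short genes of the whole table, up to 1000 bases, had a median of -0.14 at day 0 and 0.07 at day 3, and with the length trend removed the members' medians were -0.04 and 0.04. Psmg2 alone had every KO library above every WT library at that day, which 3.96% of all genes did.

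At day 0 the lowest values were those of the interferon-inducible members and, at -0.34 and -0.31, of Psmd10 and Psmb4, none of them called. Psmb9 was lower in every KO library (60.6, 74.7 and 58.2 FPKM) than in any WT library (84.8, 78.1 and 101 FPKM), with a log2 difference of -0.44 ± 0.28 and a 95% interval of -1.01 to 0.13. Psmd8 was the other gene whose groups did not overlap, with KO values of 391, 399 and 367 FPKM and WT values of 486, 414 and 483 FPKM. Over all genes tested, 3.65% had every KO library below every WT library at day 0, close to these 2 of 42. Psmb10 differed by -0.42 ± 0.20 (interval -0.84 to -0.0010), Psme2 by -0.41 ± 0.22 (-0.87 to 0.04), Psmb8 by -0.37 ± 0.23 (-0.84 to 0.11) and Psme1 by -0.34 ± 0.22 (-0.80 to 0.12), all with overlapping groups and an adjusted p of 1 in limma's test. The constitutive genes Psmb5, Psmb6 and Psmb7 differed by -0.17, -0.27 and -0.13. Day 0 was also the least precise day: at days 2, 3 and 4 the differences of Psmb8, Psmb9 and Psmb10 lay between -0.13 and 0.10, with every interval covering 0. The widest of these intervals, that of Psmb9 at day 2, ran from -0.29 to 0.33.

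**Figure D5:**
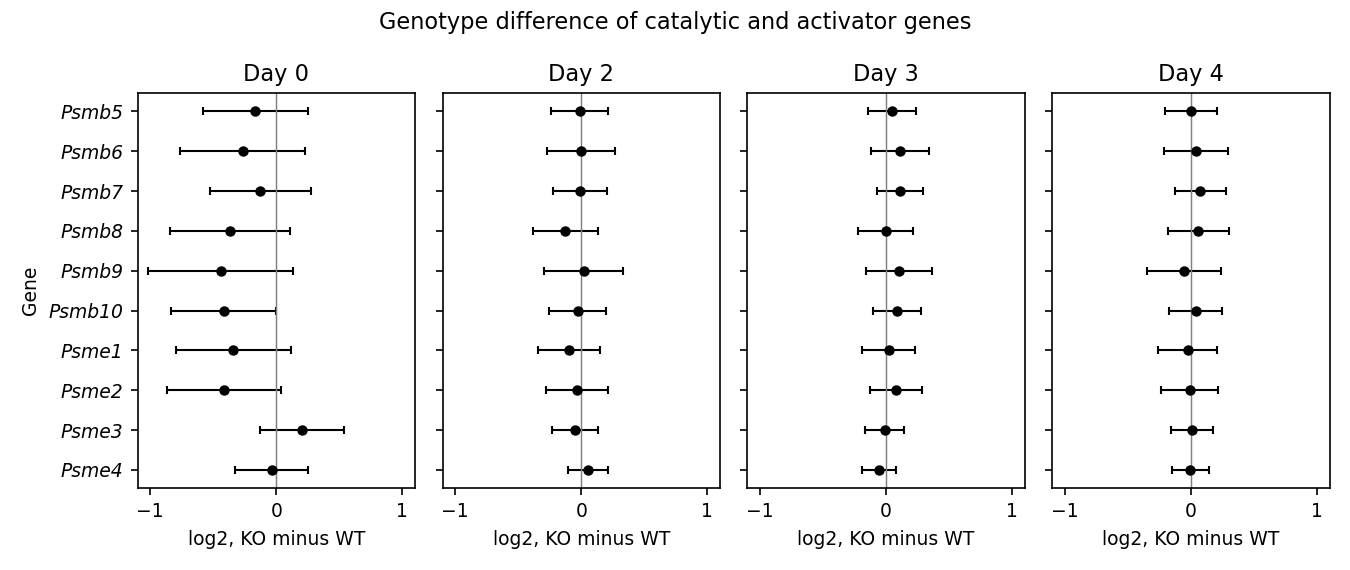
Log2 difference of KO minus WT (x axis) with its 95% interval from limma for the catalytic and activator genes (rows) at days 0, 2, 3 and 4 (panels from left to right). At day 0 the points of Psmb8, Psmb9, Psmb10, Psme1 and Psme2 lie between -0.34 and -0.44, and at the later days all points lie between -0.13 and 0.11.

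Some mice gave members above or below their group over several days. The 42 genes had a median deviation from the group mean of 0.14, 0.09, 0.09 and 0.01 on the log2 scale in KO mouse 528 at days 0, 2, 3 and 4, and of 0.17, 0.18, -0.06 and 0.09 in WT mouse 531. Short genes of the whole table deviated by 0.12, 0.08, 0.10 and 0.01 in KO mouse 528 and by 0.12, 0.13, -0.03 and 0.10 in WT mouse 531. KO mouse 532 was low on all days for the members (-0.14, -0.04, -0.13 and -0.07), as was WT mouse 529 (-0.07, -0.12, -0.01 and -0.12). The other two changed sign, KO mouse 481 with 0.02, -0.04, 0.04 and 0.05 and WT mouse 480 with -0.11, -0.03, 0.06 and 0.02. WT mouse 480 had the lowest median deviation of the members among the WT libraries at day 0, while its short genes deviated by 0.01. Its mean over Psmb8, Psmb9 and Psmb10 went the other way there, at 0.06.

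Genes around the proteasome, on lists drawn up with earlier results of these data known, gave the following. Of 11 tested genes of MHC class I peptide supply, 1 rose and 8 fell at day 2 in each genotype, with medians of -0.68 in KO cells and -0.96 in WT cells. Among all genes tested, 37.1% rose and 36.5% fell at that day in KO cells, and 38.5% and 37.5% in WT cells. Tap1, next to Psmb9, fell at day 2 in WT cells (log2 change -0.96, limma adjusted p = 4.16e-06). H2-K1, a class I heavy chain, fell (-1.66, adjusted p = 1.22e-07). Tap2 alone rose by day 4 (1.07 in KO cells and 0.68 in WT cells). Of the 15 interferon response genes, 13 fell at day 2 in KO cells and 14 in WT cells, with medians of -1.52 and -2.94. They summed to 104.2 to 150.9 FPKM in KO cells and 244.4 to 391.5 FPKM in WT cells at day 0. Between the genotypes 0.0992% of all genes were called at that day, and 5 of the 15 were called lower in KO cells, with a list median of -0.97. These were Ifit3 (-2.13), Rsad2 (-2.05), Ifit1 (-1.91), Usp18 (-1.66) and Mx1 (-0.97), all antiviral or interferon-regulating genes. None of the 11 MHC class I genes was called between the genotypes at day 0 (median -0.31). From day 2 to day 4, 14 of the 15 interferon genes rose in each genotype, against 33.4% of all genes in KO cells and 34.2% in WT cells.

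Proteasome partners outside the symbol rule were mixed. Of 23 tested, 11 rose and 5 fell at day 2 in KO cells, and 12 rose and 5 fell in WT cells. Over all genes at day 2, 37.1% rose and 36.5% fell in KO cells, and 38.5% and 37.5% in WT cells. At day 4, 11 of the 23 rose and 9 fell in KO cells, and 11 rose and 8 fell in WT cells. The day 4 shares of all genes were 38.6% and 40.8% in KO cells and 39.2% and 42.7% in WT cells, so the list was near them. Pomp, which matures the 20S core, fell in WT cells at day 4 (log2 change -1.32, limma adjusted p = 6.88e-07), and Shfm1, the small 19S subunit also called Sem1, fell by 1.78 (adjusted p = 2.71e-08). Nfe2l1, the transcription factor that renews proteasome genes when proteolysis fails, had -0.03 (adjusted p = 0.785). Ngly1 and Ddi2, which activate its product, rose by 1.39 and 1.88. Rad23b and Ubqln1, shuttles of ubiquitinated proteins, rose by 1.25 and 0.65, while Zfand5, a proteasome-binding activator, rose by 1.45. Of 9 tested ubiquitin, E1 and E2 genes, 2 rose and 5 fell in KO cells at day 4, and 2 rose and 4 fell in WT cells. The same day 4 shares of all genes apply beside these counts. Ubb, a polyubiquitin gene, fell by 1.19 in WT cells at day 4 (limma adjusted p = 1.84e-06).

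The genes whose level most resembled the mean of Psmb8, Psmb9 and Psmb10 over the 24 libraries were 6720456B07Rik (Pearson's r = 0.99), H2afj, Pttg1, Ebp, Bst2, Cib1, Tspan31 and Fis1 (r = 0.99 for each to 2 decimals). Of the members, Psme1 (r = 0.99), Psme2 (0.98) and Psmd8 (0.97) came closest. For the mean of Psmb5, Psmb6 and Psmb7 the nearest genes included Rpsa (r = 0.98), Rpl13a, Rplp0, Rpl8, Rpl14, Eef1b2 and Ppie (0.97 to 2 decimals for each of these). These correlations describe libraries that share mice and days.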

How the data were processed

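RNA-seq values were deposited by the authors as 1 table of FPKM for 10721 genes in 24 libraries. Per the submitters' processing notes, the tools were HISAT2 2.0.5, Cufflinks 2.2.1 and Cuffdiff with build mm10. The sources used here do not give the annotation, strandedness, multi-mapping rules or fragment counts, so genes that overlap others or have near-identical copies are uncertain. The table's name marks its genes as selected, by a rule not given. All 24 value columns matched 1 sample each and 0 were left unused. Summed FPKM were 573661 to 734974 at day 0 and 459180 to 537906 at later days.

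A gene entered the tests where the mean of at least 1 of 8 groups reached 1 FPKM (10081 genes, all 42 members included). Values were taken to log2(FPKM + 1), and limma 3.58.1 was run in R 4.3.3. The fit used 1 mean per genotype and day, a mean-variance trend and libraries weighted by day (0.355, 1.20, 1.70 and 1.38 for days 0, 2, 3 and 4). Two-sided p-values had the Benjamini-Hochberg adjustment over all genes within each comparison, at 0.05. Data were simulated for KO against WT at day 0, over 10081 genes. Of genes changed by 0.5, 1 and 2 on the log2 scale, 31.3, 80.6 and 97% were found, with 4 false calls. With equal weights 65.7, 91 and 98.5% were found, with 184 false calls. In like simulations of KO against WT at day 4, false calls numbered 8 with weights by day and 3 with equal weights. For WT day 4 against day 3 they numbered 10 and 1, and for WT day 4 against day 0 they numbered 3 and 28. The simulated noise differed by day, so weights by day matched it by design. It was also independent between libraries of 1 mouse. The simulation therefore cannot show that these weights suit the real libraries. The members and lists were chosen with earlier results of these data known. Values in every library are given for the catalytic and activator genes and the extremes of each role class in WT day 4 against day 0. Libraries of 1 mouse come from the same animal. Within a genotype their deviations had a median correlation of 0.261 in KO and 0.136 in WT mice, with 17 and 10 of 18 pairs above 0.1. The mouse was therefore also fitted as a block. Transcript length is the median over GENCODE vM21 basic transcripts (9139 of 10081 genes, 90.7%). Some genes of the lists and of the nearest patterns are not reported here.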

Additional observations from a re-analysis of the deposited data

How the results depend on the processing

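The settings varied were pseudocount 0.1, other filters, median scaling, equal weights, the compared groups alone and each mouse left out. The mouse as a block, neighbouring mouse numbers as a batch and removal of the length trend were also tried. A count was said to move where it differed by over 1.5 times, and a group ratio where its mean shifted by at least its SD. By this rule 269 values of counts and group ratios did not move and 9 moved. Counts that did not move could still vary, as for day 2 against day 0 in KO cells (19 to 25 with mice left out). Over the genes named, 103 values gained a call and 128 lost one. The counts between genotypes and in the interaction were 0 throughout. The counts that moved were day 3 against day 2 in KO cells (18 genes; 9 with equal weights; 4 to 19 with mice left out), day 4 against day 3 in KO cells (25; 12 with equal weights; 10 to 25), day 3 against day 2 in WT cells (27; 13 to 29) and day 4 against day 3 in WT cells (20; 12 to 25). The mean log2 ratio of Psmb9 to Psmb6 in WT cells at day 4 was -2.25, or -2.28 with pseudocount 0.1; the larger pseudocount lifts the lower of 2 values more. With 5 mice the exact test of the ratios cannot go below 0.0625, so no ratio change could pass. Left-out means for day 2 against day 0, day 4 against day 0 and day 4 against day 2 ran over -1.30 to -1.22, -1.06 to -0.94 and 0.22 to 0.28 for Psmb8 to Psmb5, and -2.27 to -2.12, -1.25 to -1.04 and 0.998 to 1.08 for Psmb10 to Psmb7. For Psmb9 to Psmb6 they ran over -0.70 to -0.63 for day 2 against day 0, 0.02 to 0.09 for day 4 against day 0 and 0.70 to 0.78 for day 4 against day 2. The length trend's removal reversed Psmb5 at day 2 (0.33 in KO cells, 0.30 in WT cells) and at day 3 in WT cells (0.18), Psme4 at day 2 (-0.049 in KO cells, -0.20 in WT cells) and day 3 in WT cells (-0.023), and, in WT cells, Psmb2 at days 2 and 3 (0.26 and 0.082) and Psmd7 at day 3 (0.26). The cause was not tested. With the replicate block for the mouse, 24 of 400 gene comparisons gained a call and 0 lost one, and no count of members moved by over 1.5 times (for day 4 against day 0 it was 36 in KO cells and 38 in WT cells). Depth per library is unknown, so counting error cannot be given.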
